A study of Mus musculus with 6 samples.

Results

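The 34 genes described here encode enzymes that break down branched-chain and other amino acids in mitochondria, carry propionate into the citric acid cycle, and use ketone bodies. They were taken by symbol from a table of 35976 rows, and all 34 were among the 14211 genes tested, which reached 10 normalized counts in 2 or more libraries. RNA was sequenced from primary mouse adipocytes of the genotype Ppargc1a(fl/fl), in which both copies of the coactivator gene Ppargc1a carry loxP sites, in 6 libraries that form 3 groups of 2. The Cre/knockdown cells received Cre adenovirus and Rbm43 siRNA. The knockdown cells received GFP adenovirus and Rbm43 siRNA. The control cells received GFP adenovirus and control siRNA. All 6 cultures carried the loxP alleles, were given an adenovirus first and an siRNA after it, and were fully differentiated before RNA was taken. The labels call the samples biological duplicates. The sex and age of the animals, and whether the duplicates came from separate animals, are not stated. The p-values thus measure only the spread between these libraries, which may not include the spread between animals. The combination of Cre virus with control siRNA was not analysed here, so the Cre virus is compared only in the presence of Rbm43 siRNA.

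Leucine, isoleucine and valine are first transaminated, and the resulting 2-oxoacids are then oxidized irreversibly by the branched-chain 2-oxoacid dehydrogenase complex, which a kinase switches off and a phosphatase switches on. Leucine carbon ends as acetyl-CoA and acetoacetate, whereas valine and isoleucine give propionyl-CoA, which biotin- and cobalamin-dependent enzymes turn into succinyl-CoA. Differentiated adipocytes are known to use branched-chain amino acids as a carbon source for lipid, and Ppargc1a encodes PGC-1alpha, a coactivator of genes of mitochondrial oxidation.

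Promoter sequences are shown for 3 members: Mccc1 and Mccc2, which encode the 2 subunits of one leucine enzyme and had opposite calls after Rbm43 knockdown, and Pccb, the 1 member in which a searched motif was found. Each runs from 250 bases before to 50 bases after the gene start (RefSeq, GRCm38.p6), 5′ to 3′ on the gene's strand; capitals mark the motif. The Mccc1 window is chr3:36000629-36000928, the Mccc2 window chr13:100015590-100015889 and the Pccb window chr9:101034835-101035134, all on the minus strand.
Mccc1: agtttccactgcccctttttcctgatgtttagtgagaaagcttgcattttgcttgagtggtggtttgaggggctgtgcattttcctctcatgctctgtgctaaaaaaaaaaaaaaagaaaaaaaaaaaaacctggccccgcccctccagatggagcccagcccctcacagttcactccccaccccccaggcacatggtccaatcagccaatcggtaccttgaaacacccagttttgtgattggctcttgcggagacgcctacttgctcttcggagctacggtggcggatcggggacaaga
Mccc2: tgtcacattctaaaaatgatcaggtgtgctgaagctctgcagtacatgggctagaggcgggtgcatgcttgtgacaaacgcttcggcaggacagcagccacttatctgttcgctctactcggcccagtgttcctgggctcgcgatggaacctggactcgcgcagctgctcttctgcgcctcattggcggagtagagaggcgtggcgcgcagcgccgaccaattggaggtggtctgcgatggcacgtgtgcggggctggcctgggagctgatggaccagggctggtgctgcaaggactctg
Pccb: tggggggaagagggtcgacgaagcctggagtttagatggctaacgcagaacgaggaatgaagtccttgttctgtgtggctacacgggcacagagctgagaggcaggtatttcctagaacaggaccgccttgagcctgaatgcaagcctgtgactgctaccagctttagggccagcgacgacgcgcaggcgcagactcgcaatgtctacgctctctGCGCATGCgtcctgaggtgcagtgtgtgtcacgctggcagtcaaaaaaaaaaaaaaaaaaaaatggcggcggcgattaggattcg

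The windows of 28 of the 34 members were in the RefSeq table, with 35 promoters between them, and Dbt, Mut, Acat1, Adhfe1, Aldh2 and Abat had no entry. Both strands were searched for 4 motifs. The estrogen-related receptor element TCAAGGTCA was in 0 member genes and in 0.466% of all 27025 genes with a window, and the cyclic AMP response element TGACGTCA was in 0 members and 2.03% of genes. The core of the nuclear respiratory factor NRF1, GCATGCGC, was in Pccb, read on the opposite strand at bases 216 to 223 of the window, and in 3.05% of genes. The direct repeat AGGTCANAGGTCA bound by PPAR and RXR receptors, whose units overlap the last 6 letters of the estrogen-related receptor element, was in 0 members and 0.0481% of genes. A match here is only a run of letters, and a missing match says nothing about the factors. The 2 methylcrotonyl-CoA carboxylase promoters differed in composition, with a GC content of 60.3% and 19 CpG dinucleotides for Mccc2 and 50.7% and 8 for Mccc1, against medians of 55.7% and 15 over the member promoters and 52.7% and 7 over all promoters.

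Rbm43, the target of the siRNA, had 53.8 and 32.5 normalized counts in Cre/knockdown cells, 43.7 and 46.6 in knockdown cells and 185 and 224 in control cells, so all 4 libraries with Rbm43 siRNA lay below both control libraries. Ppargc1a, the gene the Cre virus acts on, had 463 and 469 normalized counts in Cre/knockdown cells, 399 and 423 in knockdown cells and 163 and 202 in control cells. Both libraries labelled Cre virus thus lay above the other 4 in this whole-gene count, which includes exons outside the excised part and does not check excision; the difference between Cre/knockdown and knockdown cells was 0.18 ± 0.10 (adjusted p = 0.33) on the log2 scale (limma). Directions given for Cre virus below are those of the libraries so labelled. Reads in genes numbered 15775398 to 21961724 per library. All 11 adipocyte markers, Adipoq, Plin1 and Fabp4 among them, were detected in every library, and their summed level was 346615 and 348224 in Cre/knockdown cells, 404129 and 413318 in knockdown cells and 328244 and 311796 in control cells. Of 7 skeletal muscle markers 4 were at 0 in every library. In bulk RNA, fewer cells of a type and less RNA per cell cannot be told apart.

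Knockdown cells had more mRNA for 12 of the 34 members than control cells had, and less for 5, in the comparison that asks what Rbm43 siRNA changes (limma on log2(normalized count + 1), Benjamini-Hochberg adjusted p under 0.05). Over all genes tested, 13.5% were called higher and 9.76% lower. The median log2 fold change of the members was 0.15, against -0.0056 over all genes. The calls ran in both directions: Aldh4a1, Ppm1k and Acat1 rose, at 0.56, 0.49 and 0.44, while Abat, Mccc2 and Oxct1 fell, at -0.66, -0.59 and -0.29. With upper-quartile scaling the split over all called genes turned to 1603 higher and 1861 lower, against 1914 and 1387, and the members' split was 9 and 5. Calls of 9 of the 17 members held whichever library was left out. Bcat1, Dbt, Bckdk, Mccc1, Hibch, Hsd17b10, Mut and Aldh2 lost theirs without at least 1 library, with adjusted p between 0.0569 and 0.287; 6 of the 17 calls were lost without knockdown replicate 2, which left 3 lower. Limma without the mean-variance trend called 3 members higher and 3 lower, and 877 and 427 of the 14211 genes.

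The Cre/knockdown cells had less mRNA for 17 members than knockdown cells had and more for 1, Bcat1, in the comparison that asks what the Cre virus changes when Rbm43 is knocked down. Over all genes tested, 5.88% were lower and 2.62% higher. The members' median was -0.20, against 0.0022 over all genes, and the largest called difference in size was that of Mcee, -0.42. Acat1, Hibch, Pcca and Adhfe1 kept their calls whichever library was left out, and the other 14 did not, with adjusted p between 0.0524 and 0.419 where a call was lost. The number lower was 8 without Cre/knockdown replicate 1, 6 without Cre/knockdown replicate 2 and 8 without knockdown replicate 2. Without either control library it was 24, with Bcat2, Ivd, Mccc1, Mccc2, Auh, Acad8 and Hsd17b10 added. Total scaling gave 565 genes higher and 734 lower over all genes, against 372 and 836, with 15 members lower. Limma without the mean-variance trend called 0 members and 0 genes, and at an unadjusted p under 0.05 it had 1 member higher and 21 lower. With no filter on low counts 11 members were lower, as were 490 of 22944 genes. DESeq2 called 14 members and 621 genes lower, and edgeR 18 and 905.

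The Cre/knockdown cells, set against control cells, differ in both treatments. There 1 member, Aldh4a1, was higher and 11 were lower, where 8.47% of all genes were higher and 6.28% lower. With upper-quartile scaling the split over all called genes turned to 1006 higher and 1085 lower, against 1203 and 893, and the members' split was 1 and 11. The members' median was -0.076, against -0.0018. Mccc2, Abat, Oxct1, Aldh2 and Aldh4a1 kept their calls whichever library was left out. Bckdha, Bckdhb, Ivd, Hibch, Aldh6a1, Pccb and Gcdh lost theirs without at least 1 library (adjusted p between 0.0566 and 0.417 where lost), and the number lower was 5 without Cre/knockdown replicate 1 and 4 without Cre/knockdown replicate 2. The number lower was 6 with DESeq2, where 530 genes were lower, and 6 with no filter, where 533 were. It was 3 without the mean-variance trend, where 191 genes were lower. The knockdown libraries stand in the first 2 comparisons with opposite sign, the control libraries in the first and the last, and the Cre/knockdown libraries in the last and the one before it, so the 3 sets of calls are not independent of each other.

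**Figure D1:**
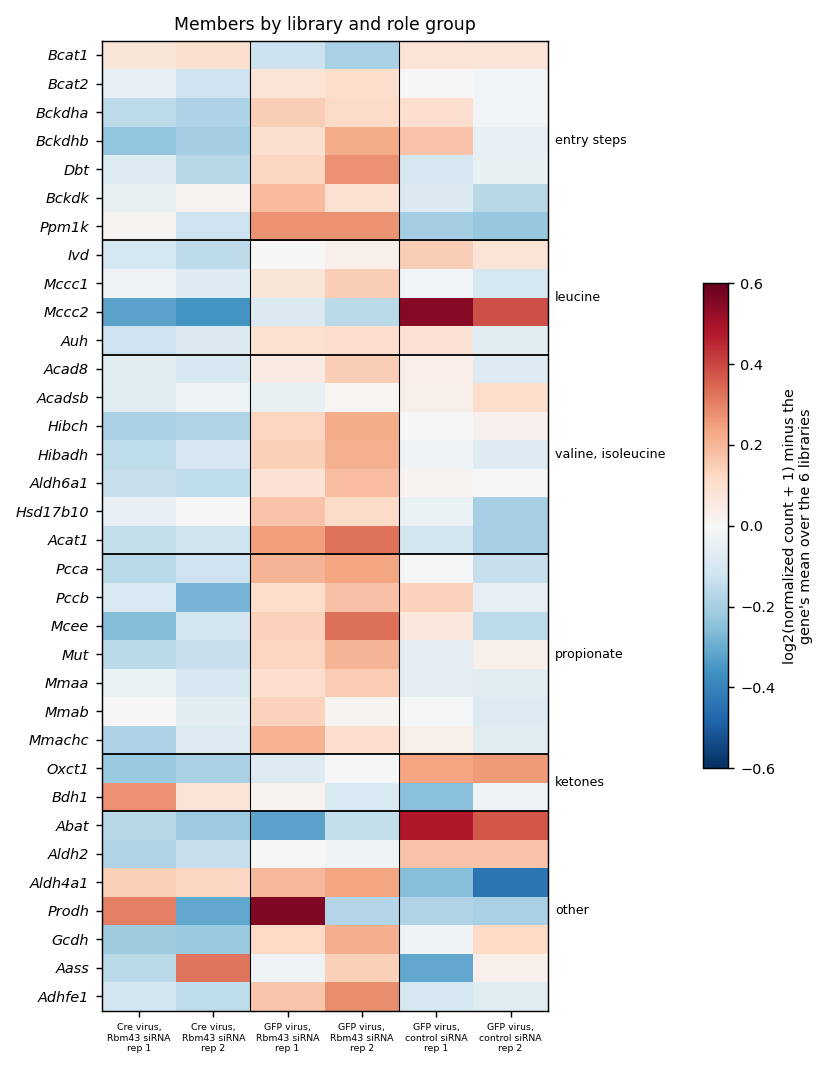
Each of the 34 members (rows, by role) in each of the 6 libraries (columns), as log2(normalized count + 1) minus the gene's mean over the 6 libraries. Most rows of the entry, valine and isoleucine and propionate groups are reddest in the knockdown libraries, whereas Mccc2, Oxct1, Abat and Aldh2 are reddest in the control libraries.

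**Figure D2:**
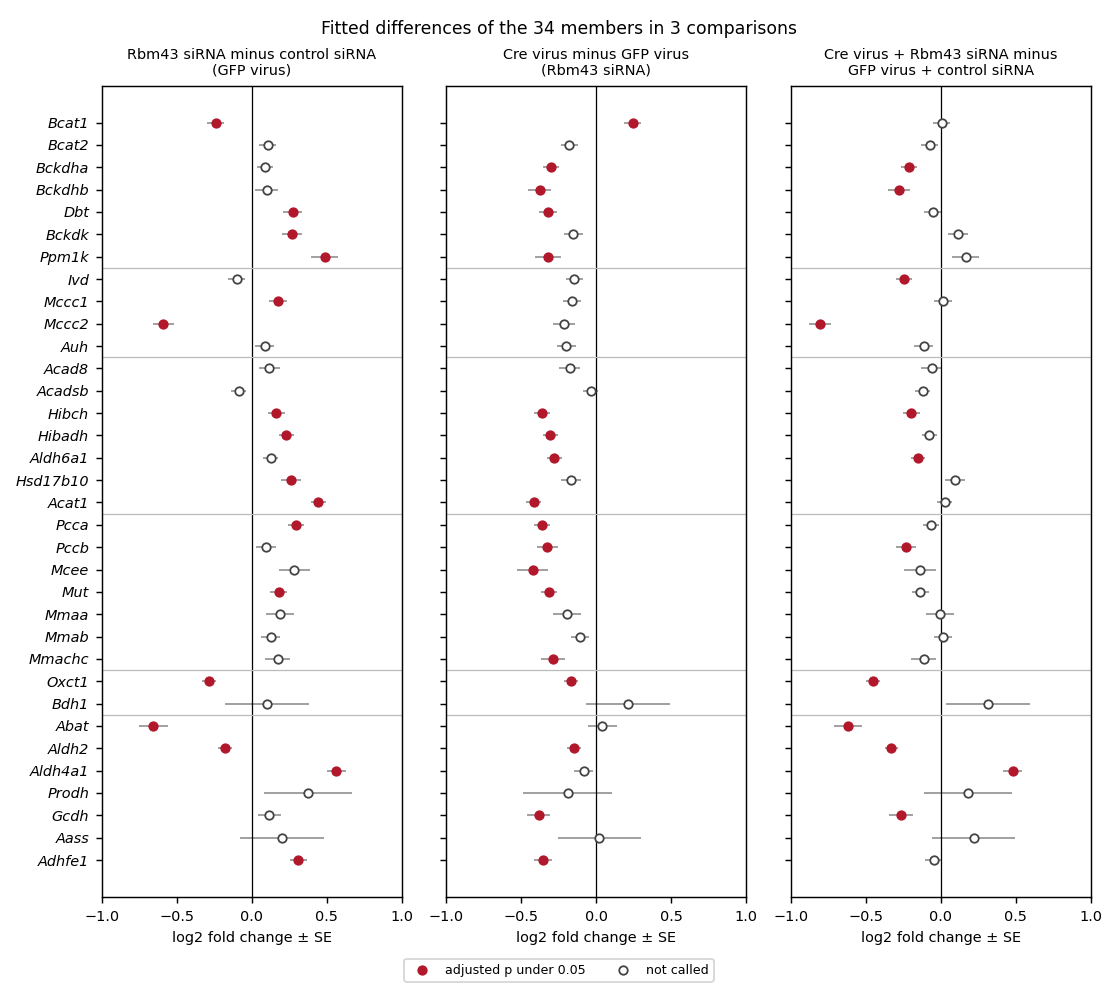
Log2 fold change with its standard error for each member in the 3 comparisons (points and bars; filled points have an adjusted p under 0.05). In the middle panel 17 filled points lie left of 0 and 1, Bcat1, lies right of it.

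The markers of adipocytes were called mostly in the members' direction in the first 2 comparisons. Of the 11, 9 were higher and 1, Cebpa (-0.36), lower in knockdown than in control cells, with a median of 0.34, and 9 were lower and 0 higher in Cre/knockdown than in knockdown cells, with a median of -0.28 (adjusted p under 0.05 in limma). In the third comparison 3 were higher and 2 lower, with a median of 0.041, where 1 member was higher and 11 lower. Markers of mural and smooth muscle cells had summed levels of 76112 and 79429 in Cre/knockdown cells, 66843 and 63926 in knockdown cells and 63105 and 57655 in control cells, and of 7 such genes 3 were higher and 1 lower in the first comparison, 5 higher and 0 lower in the second, and 6 higher and 1 lower in the third. Preadipocyte and fibroblast markers summed to 622809 and 618235 in Cre/knockdown cells, 595131 and 568995 in knockdown cells and 614898 and 610359 in control cells. By limma 2, 0 and 1 of 9 tested were lower and 0 higher in the 3 comparisons. Each of edgeR and DESeq2 called 1 of these markers higher with Cre virus and 1 higher against control cells. Macrophage markers summed to between 1584 and 1869 over the 6 libraries, with 2, 0 and 1 of 9 lower and 0 higher by limma. Endothelial markers summed to between 256 and 364, with 0, 0 and 1 of 7 higher and 0 lower by limma. DESeq2 called 1, 0 and 0 macrophage markers lower and 0 endothelial markers, and edgeR called 1 endothelial marker higher with Cre virus. The 7 skeletal muscle markers summed to 832 and 870.4 in Cre/knockdown cells, 624 and 536 in knockdown cells and 571 and 537 in control cells, nearly all of it Acta1, an actin gene that was higher with Cre virus (0.57 ± 0.081, adjusted p = 1.52e-04) and against control cells (0.62 ± 0.081, adjusted p = 2.59e-05). The part of these differences in the members' values was not tested. Among all genes tested, the shares called higher and lower were 13.5% and 9.76% in the first comparison. They were 2.62% and 5.88% in the second, and 8.47% and 6.28% in the third. The 34 members together had 51415 and 51517 in Cre/knockdown cells, 59649.7 and 61601 in knockdown cells and 58004 and 56437 in control cells, or 0.267% of each Cre/knockdown library, 0.303% and 0.316% of the knockdown libraries and 0.300% and 0.294% of the control libraries.

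Of the 7 genes of the entry steps, 3 rose and 1 fell with Rbm43 siRNA, and 1 rose and 4 fell with Cre virus. Of all genes tested, 13.5% rose and 9.76% fell with Rbm43 siRNA, and 2.62% rose and 5.88% fell with Cre virus. Bcat1, the cytosolic aminotransferase (chr6:144993835-145076184, minus strand, GRCm38), had 1391 and 1415 normalized counts in Cre/knockdown cells, 1211 and 1159 in knockdown cells and 1400.2 and 1396 in control cells. Both knockdown libraries were the lowest of the 6, and the other 2 groups overlapped. It fell in knockdown cells (-0.24 ± 0.057, adjusted p = 0.00418) and rose in Cre/knockdown cells (0.24 ± 0.057, adjusted p = 0.00891), with 0.0049 ± 0.057 between Cre/knockdown and control cells. Both calls were lost without knockdown replicate 2, and the rise also without either Cre/knockdown library. Bcat2, the mitochondrial aminotransferase, had log2 fold changes of 0.10, -0.18 and -0.075 in the 3 comparisons, none called by limma; with Cre virus its adjusted p was 0.0574, edgeR gave 0.0481 and 5 of 17 alternative settings called it. It lay between 1221 and 1432 normalized counts over the 6 libraries.

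Dbt, the transacylase core of the dehydrogenase complex, had 1568 and 1482 normalized counts in Cre/knockdown cells, 1812 and 2008 in knockdown cells and 1549 and 1612 in control cells. The knockdown libraries were the highest, the other 2 groups overlapping each other. Dbt rose with Rbm43 siRNA (0.27 ± 0.060, adjusted p = 0.00255) and fell with Cre virus (-0.32 ± 0.060, adjusted p = 0.00172). The rise was lost in 2 and the fall in 3 of 17 alternative settings, both without knockdown replicate 2 among them. Against control cells Dbt was at -0.052 ± 0.060, not called. Bckdha, the alpha chain of the first component, had 2047 and 2003 normalized counts in Cre/knockdown cells, 2523 and 2467 in knockdown cells and 2442 and 2253 in control cells. Bckdhb, its beta chain, had 699.9 and 717 normalized counts in Cre/knockdown cells, 881 and 964 in knockdown cells and 928 and 796 in control cells. For both, the Cre/knockdown libraries were below the other 4. They were at 0.089 ± 0.054 and 0.10 ± 0.076 with Rbm43 siRNA, not called, and fell with Cre virus (-0.30 ± 0.054 and -0.38 ± 0.076; adjusted p = 0.00119 and 0.00298). They were also lower in Cre/knockdown than in control cells (-0.21 ± 0.054 and -0.28 ± 0.076, with adjusted p = 0.0109 and 0.0168). The Cre virus call was lost in 2 of 17 alternative settings for Bckdha and in 4 for Bckdhb. The call against control cells was lost in 3 for Bckdha and in 6 for Bckdhb.

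The 2 regulators of the complex moved the same way with Rbm43 siRNA. Ppm1k (chr6:57506502-57535468, minus strand), the phosphatase that activates the dehydrogenase, had 331 and 299.5 normalized counts in Cre/knockdown cells, 394 and 394 in knockdown cells and 283 and 279 in control cells. Its 3 groups did not overlap, with knockdown cells highest and control cells lowest. It rose with Rbm43 siRNA (0.49 ± 0.090, adjusted p = 4.89e-04) and fell with Cre virus (-0.32 ± 0.090, adjusted p = 0.0293), the fall being lost when any 1 of the 4 libraries compared was left out. Bckdk, the kinase that inactivates the dehydrogenase, had 924 and 963 normalized counts in Cre/knockdown cells, 1086 and 1015 in knockdown cells and 896 and 847 in control cells, the knockdown libraries again highest. It rose with Rbm43 siRNA (0.27 ± 0.064, adjusted p = 0.0046, and adjusted p = 0.0764 without knockdown replicate 1) and was at -0.15 ± 0.064 with Cre virus, not called. Between Cre/knockdown and control cells Ppm1k was at 0.16 ± 0.090 and Bckdk at 0.11 ± 0.064, not called.

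Among the 4 leucine genes, Mccc2 had the largest fall. Mccc2, the beta subunit of methylcrotonyl-CoA carboxylase (chr13:99948530-100015639, minus strand), had 566 and 551 normalized counts in Cre/knockdown cells, 665 and 632 in knockdown cells and 1033 and 924 in control cells. All 4 libraries with Rbm43 siRNA lay below both control libraries, and both Cre/knockdown libraries lay below both knockdown libraries. It fell by 0.59 ± 0.072 on the log2 scale with Rbm43 siRNA (adjusted p = 5.43e-06) and was at -0.22 ± 0.072 (adjusted p = 0.0741) with Cre virus, not called. Between Cre/knockdown and control cells the difference was -0.81 ± 0.072 (adjusted p = 2.66e-07).

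Mccc1 (chr3:35959312-36000678, minus strand), the biotin-carrying alpha subunit of the same enzyme, did not follow Mccc2. It had 1165 and 1117 normalized counts in Cre/knockdown cells, 1243 and 1308 in knockdown cells and 1165 and 1097 in control cells. The knockdown libraries were the highest, and the other 2 groups overlapped. It rose with Rbm43 siRNA (0.17 ± 0.061, adjusted p = 0.0459), a call lost in 11 of 17 alternative settings, and was at -0.16 ± 0.061 and 0.013 ± 0.061 in the other comparisons. Ivd, isovaleryl-CoA dehydrogenase, had 1330.2 and 1284 normalized counts in Cre/knockdown cells, 1430.4 and 1463 in knockdown cells and 1586 and 1515 in control cells. Its 3 groups did not overlap, with control cells highest and Cre/knockdown cells lowest. It was not called with Rbm43 siRNA (-0.10 ± 0.056) or with Cre virus (-0.15 ± 0.056), and was lower in Cre/knockdown than in control cells (-0.25 ± 0.056, adjusted p = 0.00523; lost without either Cre/knockdown library). Auh, methylglutaconyl-CoA hydratase, which also binds RNA, was called by limma in 0 comparisons (0.086, -0.20 and -0.11). With Cre virus its adjusted p was 0.0592, edgeR gave 0.0464 and 4 of 17 alternative settings called it. It lay between 1045 and 1221 normalized counts.

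The valine and isoleucine route held 7 genes, of which 4 rose and 0 fell with Rbm43 siRNA and 0 rose and 4 fell with Cre virus. Of all genes tested, 13.5% rose and 9.76% fell with Rbm43 siRNA, and 2.62% rose and 5.88% fell with Cre virus. Acat1 (chr9:53580522-53610382, minus strand), the mitochondrial thiolase that ends isoleucine breakdown and also splits acetoacetyl-CoA in ketone use, had 4526 and 4611 normalized counts in Cre/knockdown cells, 5949.6 and 6270.3 in knockdown cells and 4632 and 4358 in control cells. The knockdown libraries stood above the other 4, which overlapped. Its log2 fold changes were 0.44 ± 0.049 (adjusted p = 1.94e-06) with Rbm43 siRNA, -0.42 ± 0.049 (adjusted p = 2.53e-05) with Cre virus and 0.024 ± 0.049 between Cre/knockdown and control cells, the last not called.

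Hibch and Hibadh, the hydrolase and dehydrogenase of the hydroxyisobutyrate step of valine, rose with Rbm43 siRNA, at 0.16 ± 0.055 and 0.23 ± 0.049 (adjusted p = 0.0362 and 0.00198). The call of this rise was lost in 10 of 17 alternative settings for Hibch and in 1 for Hibadh. Both genes fell with Cre virus, at -0.36 ± 0.055 and -0.31 ± 0.049 (adjusted p = 2.75e-04 and 4.75e-04). Hibch had 1492 and 1505 normalized counts in Cre/knockdown cells, 1865 and 1989 in knockdown cells and 1701 and 1736 in control cells, so that the Cre/knockdown libraries were below all others. Hibadh had 3490.5 and 3619 normalized counts in Cre/knockdown cells, 4287 and 4505 in knockdown cells and 3821 and 3677 in control cells. Again the Cre/knockdown libraries were lowest and the knockdown libraries highest. Between Cre/knockdown and control cells Hibch was lower (-0.20 ± 0.055, adjusted p = 0.0194, lost without either Cre/knockdown library), and Hibadh was at -0.077 ± 0.049, not called.

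Aldh6a1, methylmalonate semialdehyde dehydrogenase, had 3925 and 3889 normalized counts in Cre/knockdown cells, 4583 and 4913 in knockdown cells and 4367 and 4326 in control cells. Its 3 groups did not overlap, in the order Cre/knockdown, control and knockdown cells from low to high. It was at 0.13 ± 0.049 with Rbm43 siRNA, not called, and was lower in Cre/knockdown cells than in knockdown cells (-0.28 ± 0.049, adjusted p = 9.48e-04) and than in control cells (-0.15 ± 0.049, adjusted p = 0.0407). The call against knockdown cells was lost in 2 and that against control cells in 6 of 17 alternative settings. Hsd17b10, an isoleucine dehydrogenase that is also a subunit of mitochondrial RNase P, rose with Rbm43 siRNA (0.26 ± 0.067, adjusted p = 0.00729) and was at -0.17 ± 0.067 with Cre virus and 0.10 ± 0.067 against control cells, not called, its counts lying between 826 and 1070.1. The acyl-CoA dehydrogenases Acad8 (valine) and Acadsb (isoleucine) were called by limma in 0 comparisons, with log2 fold changes of 0.12, -0.18 and -0.061 for Acad8 and -0.086, -0.037 and -0.12 for Acadsb. Acad8 with Cre virus was called in 3 of 17 alternative settings, and Acadsb against control cells in 1. Acad8 lay between 700.0 and 829 normalized counts over the 6 libraries and Acadsb between 2934 and 3319.

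In the propionate route 2 of 7 genes rose with Rbm43 siRNA and 5 fell with Cre virus. Of all genes tested, 13.5% and 5.88% did so. Pcca, the biotin-carrying subunit of propionyl-CoA carboxylase, had 2036 and 2096 normalized counts in Cre/knockdown cells, 2625 and 2686 in knockdown cells and 2264 and 2069 in control cells. The knockdown libraries were the highest, and the other 2 groups overlapped. Pcca rose with Rbm43 siRNA (0.29 ± 0.055, adjusted p = 5.41e-04) and fell with Cre virus (-0.36 ± 0.055, adjusted p = 2.75e-04), and was at -0.067 ± 0.055 between Cre/knockdown and control cells, not called. Pccb, the other subunit, had 1710.0 and 1501 normalized counts in Cre/knockdown cells, 1963 and 2059.6 in knockdown cells and 2009.8 and 1765 in control cells. The Cre/knockdown libraries were below the other 4, and the knockdown and control groups overlapped. It was at 0.095 ± 0.069 with Rbm43 siRNA, not called, and fell with Cre virus (-0.33 ± 0.069, adjusted p = 0.00422), a call lost in 4 of 17 alternative settings. Pccb was the 1 propionate gene called between Cre/knockdown and control cells (-0.23 ± 0.069, adjusted p = 0.0272; adjusted p up to 0.417 with 1 library left out).

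Mut, the cobalamin-dependent mutase, had 1714 and 1745 normalized counts in Cre/knockdown cells, 2096 and 2209 in knockdown cells and 1841 and 1963 in control cells. The 3 groups did not overlap, with Cre/knockdown cells lowest and knockdown cells highest. It rose with Rbm43 siRNA (0.18 ± 0.055, adjusted p = 0.0244; lost in 10 of 17 alternative settings) and fell with Cre virus (-0.32 ± 0.055, adjusted p = 9.65e-04). Mcee, the methylmalonyl-CoA epimerase, had 255 and 282 normalized counts in Cre/knockdown cells, 337 and 385 in knockdown cells and 319 and 274 in control cells. Its level in knockdown cells was above both other groups, which overlapped, and its difference with Rbm43 siRNA missed the threshold (0.28 ± 0.10, adjusted p = 0.0555) while that with Cre virus passed it (-0.42 ± 0.10, adjusted p = 0.0131). The Cre virus call of Mcee was lost in 5 of 17 alternative settings. Against control cells Mut and Mcee were at -0.14 ± 0.055 and -0.14 ± 0.10 in Cre/knockdown cells, not called. Of the 3 cobalamin genes, Mmachc, which processes the vitamin on entry, fell with Cre virus (-0.29 ± 0.081, adjusted p = 0.0308). This call was lost in 7 of 17 alternative settings. Mmaa, a chaperone of the mutase, and Mmab, the adenosyltransferase, were at -0.19 ± 0.093 and -0.11 ± 0.061 with Cre virus, not called. With Rbm43 siRNA Mmachc, Mmaa and Mmab stood at 0.17, 0.19 and 0.13, and between Cre/knockdown and control cells at -0.12, -0.0070 and 0.016, not called. Over the 6 libraries Mmachc lay between 418 and 549.6 normalized counts, Mmaa between 263 and 312, and Mmab between 1237 and 1441.

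**Figure D3:**
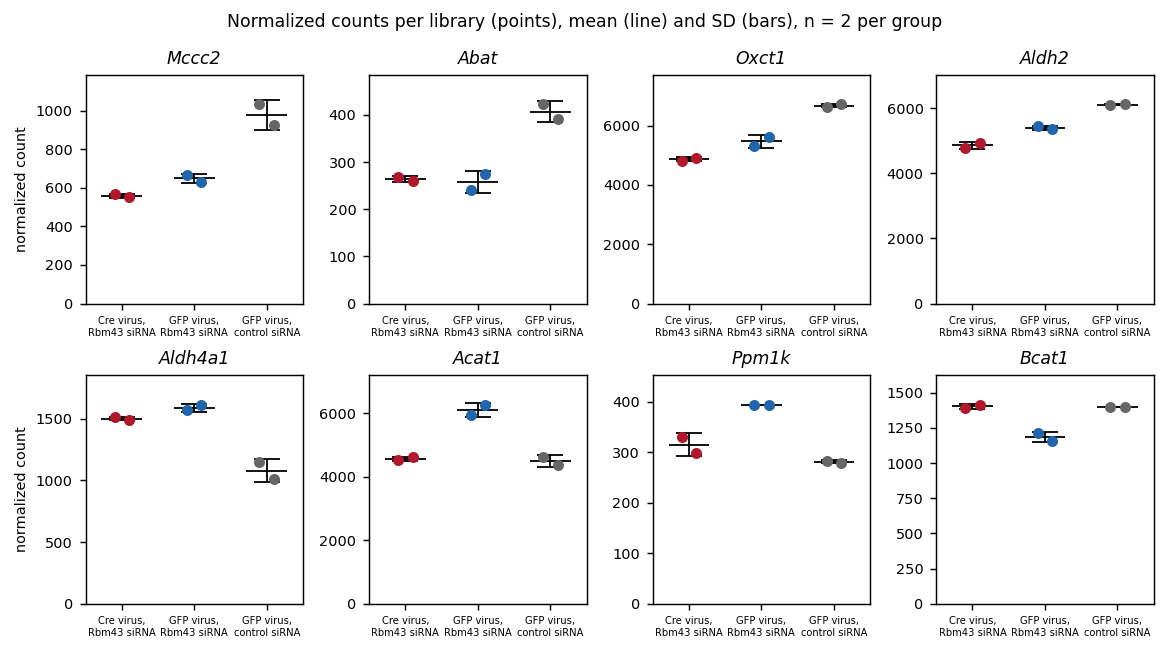
Normalized counts of 8 members in each library (points), with the mean (long line) and SD (bars; n = 2 per group), from axes that start at 0. Mccc2, Abat, Oxct1 and Aldh2 are highest in control cells, Aldh4a1 is lowest there, Acat1 and Ppm1k are highest in knockdown cells and Bcat1 is lowest in them.

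The ketone genes were Oxct1 and Bdh1. Oxct1 (chr15:4026383-4155344, plus strand), the transferase that activates acetoacetate for oxidation outside the liver, had 4819.7 and 4909.9 normalized counts in Cre/knockdown cells, 5315 and 5625 in knockdown cells and 6629.7 and 6715 in control cells. Its 3 groups did not overlap, Cre/knockdown cells being lowest and control cells highest. It fell with Rbm43 siRNA (-0.29 ± 0.047, adjusted p = 1.58e-04), and the difference between Cre/knockdown and control cells was -0.46 ± 0.047 (adjusted p = 1.74e-06). The fall with Cre virus was -0.17 ± 0.047 (adjusted p = 0.0307) and was lost in 7 of 17 alternative settings, among them without either Cre/knockdown library and without knockdown replicate 2. Bdh1, 3-hydroxybutyrate dehydrogenase, was close to the filter, at 30.3 and 26.4 normalized counts in Cre/knockdown cells, 25.2 and 23.3 in knockdown cells and 20.8 and 24.3 in control cells, and its differences of 0.10 ± 0.28, 0.21 ± 0.28 and 0.32 ± 0.28 were not called.

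Of the 7 members from other routes, 2 rose and 2 fell with Rbm43 siRNA, where 13.5% of all genes tested rose and 9.76% fell. Abat (chr16:8513429-8621568, plus strand), the transaminase that degrades GABA and also acts on a valine product, had 269 and 260.0 normalized counts in Cre/knockdown cells, 242 and 274 in knockdown cells and 422 and 392 in control cells. The 4 libraries with Rbm43 siRNA lay below both control libraries, and the Cre/knockdown and knockdown groups overlapped. It fell with Rbm43 siRNA (-0.66 ± 0.10, adjusted p = 4.24e-05), was lower in Cre/knockdown than in control cells (-0.62 ± 0.10, adjusted p = 1.50e-04) and was at 0.039 ± 0.10 (adjusted p = 0.871) with Cre virus, not called.

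Aldh4a1 (chr4:139622866-139649690, plus strand), which completes the conversion of proline to glutamate, had 1508 and 1489.7 normalized counts in Cre/knockdown cells, 1565 and 1612 in knockdown cells and 1144 and 1010.3 in control cells. Here the 4 libraries with Rbm43 siRNA lay above both control libraries, with the knockdown group above the Cre/knockdown group. It rose with Rbm43 siRNA (0.56 ± 0.063, adjusted p = 1.94e-06), was higher in Cre/knockdown than in control cells (0.48 ± 0.063, adjusted p = 2.73e-05), and was at -0.084 ± 0.063 (adjusted p = 0.504) with Cre virus, not called. Prodh, which starts the same conversion, was low, at 38.2 and 24.6 normalized counts in Cre/knockdown cells, 45.6 and 27.1 in knockdown cells and 27.0 and 26.8 in control cells. Its Cre/knockdown group overlapped both other groups, and the lower knockdown library was barely above the control libraries. Prodh was not called (0.37 ± 0.29, -0.19 ± 0.29 and 0.18 ± 0.29).

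Aldh2, which oxidizes acetaldehyde and lipid aldehydes, had 4783 and 4933 normalized counts in Cre/knockdown cells, 5434 and 5342 in knockdown cells and 6102 and 6111 in control cells. As for Oxct1, its 3 groups did not overlap and were ordered from Cre/knockdown, lowest, to control cells, highest. It fell with Rbm43 siRNA (-0.18 ± 0.046, adjusted p = 0.007, and adjusted p = 0.0596 without knockdown replicate 2), and Cre/knockdown cells were below control cells (-0.33 ± 0.046, adjusted p = 4.77e-05). The Cre virus value, -0.15 ± 0.046 (adjusted p = 0.0495), was at the threshold and lost its call in 11 of 17 alternative settings. Adhfe1, which oxidizes 4-hydroxybutyrate, had 1415 and 1376 normalized counts in Cre/knockdown cells, 1717 and 1859 in knockdown cells and 1428 and 1456 in control cells. The knockdown libraries were above the other 4, and Adhfe1 rose with Rbm43 siRNA (0.31 ± 0.057, adjusted p = 5.32e-04) and fell with Cre virus (-0.36 ± 0.057, adjusted p = 4.71e-04), with -0.047 ± 0.057 against control cells, not called.

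Of the lysine genes, Gcdh, glutaryl-CoA dehydrogenase, had 456 and 454 normalized counts in Cre/knockdown cells, 575 and 615 in knockdown cells and 521 and 576 in control cells. The Cre/knockdown libraries were below the other 4, in which the knockdown and control groups overlapped. It was at 0.12 ± 0.078 with Rbm43 siRNA, not called, and fell with Cre virus (-0.38 ± 0.078, adjusted p = 0.00318) and against control cells (-0.27 ± 0.078, adjusted p = 0.0254). The Cre virus call was lost in 4 and the call against control cells in 6 of 17 alternative settings. Aass, the first enzyme of lysine breakdown, was low, at 25.4 and 36.0 normalized counts in Cre/knockdown cells, 28.2 and 31.7 in knockdown cells and 22.9 and 29.2 in control cells, and was called in 0 comparisons (0.20 ± 0.28, 0.019 ± 0.28 and 0.22 ± 0.28).

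The balance of enzymes that act together was read as a ratio of 2 normalized counts within each library, which does not depend on the size factor. With 2 libraries against 2, the smallest two-sided exact permutation p is 0.333, so an exact test cannot pass a threshold of 0.05, and the ratios are given as values with no test; they are not corrected for transcript length and are compared between libraries only. Mccc1 over Mccc2 was 2.06 and 2.03 in Cre/knockdown cells, 1.87 and 2.07 in knockdown cells and 1.13 and 1.19 in control cells. The 4 libraries with Rbm43 siRNA lay above both control libraries, and the Cre/knockdown and knockdown groups overlapped. Acat1 over Oxct1, consecutive enzymes of ketone use, was 0.939 and 0.939 in Cre/knockdown cells, 1.12 and 1.11 in knockdown cells and 0.699 and 0.649 in control cells. There the 3 groups did not overlap, knockdown cells being highest and control cells lowest.

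Bcat1 over Bcat2, the cytosolic over the mitochondrial aminotransferase, was 1.08 and 1.16 in Cre/knockdown cells, 0.861 and 0.809 in knockdown cells and 1.06 and 1.06 in control cells, lowest in the knockdown libraries. Bckdk over Ppm1k, the inactivating over the activating regulator, was 2.79 and 3.21 in Cre/knockdown cells, 2.75 and 2.58 in knockdown cells and 3.17 and 3.04 in control cells. The knockdown libraries were lowest, and the other 2 groups overlapped. Pcca over Pccb was 1.19 and 1.40 in Cre/knockdown cells, 1.34 and 1.30 in knockdown cells and 1.13 and 1.17 in control cells, the control libraries being lowest, and Bckdha over Bckdhb was 2.92 and 2.79 in Cre/knockdown cells, 2.86 and 2.56 in knockdown cells and 2.63 and 2.83 in control cells, with all 3 groups overlapping.

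**Figure D4:**
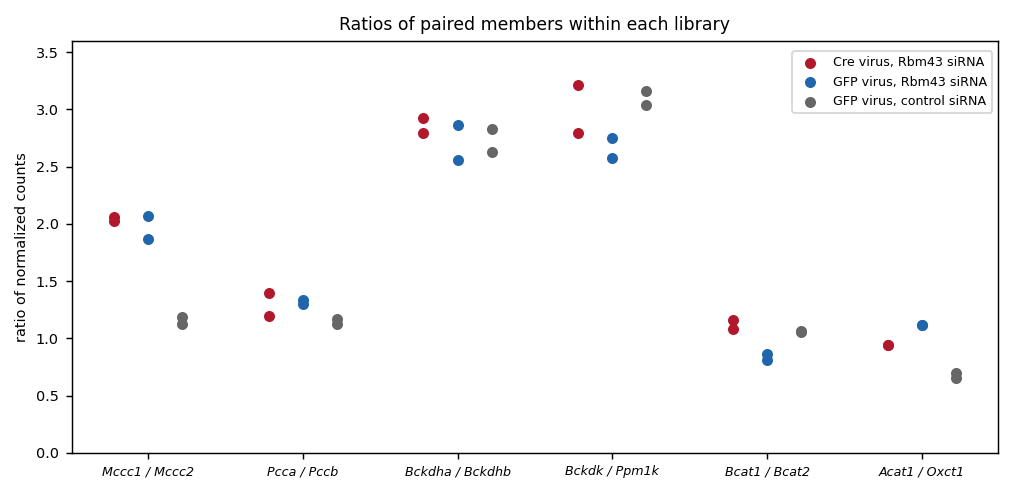
Ratio of the normalized counts of 2 members within each library (points; 2 libraries per group, linear axis from 0). Mccc1 over Mccc2 lies between 1.87 and 2.07 in the 4 libraries with Rbm43 siRNA and at 1.13 and 1.19 in the control libraries.

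Levels of different members can be set side by side only per length, here as normalized counts per kilobase of the union of exons in GENCODE M21 (GRCm38), since the annotation behind the counts is not given in the sources used here. Oxct1 stood highest in control cells, at 1314 ± 17.2 normalized counts per kilobase in Cre/knockdown cells, 1478 ± 59.3 in knockdown cells and 1803 ± 16.3 in control cells (mean ± SD, n = 2 each). Bckdha followed, at 1066 ± 16.4 normalized counts per kilobase in Cre/knockdown cells, 1314 ± 20.7 in knockdown cells and 1236 ± 70.2 in control cells. Acat1 and Aldh2 were close to it and to each other in control cells, at 1196 ± 51.7 and 1191 ± 1.27, so that these 3 neighbours in the order did not differ beyond their spread. In knockdown cells Acat1 had more than Oxct1, at 1626 ± 60.3 for Acat1. Aass, Bdh1 and Prodh were lowest in control cells, at 6.83, 5.81 and 3.45.

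Steps that the members share with fatty acid oxidation, the citric acid cycle and ketone metabolism were called mostly higher with Rbm43 siRNA and mostly lower with Cre virus. Of 29 such genes tested, 16 were higher and 4 lower in knockdown than in control cells, 1 higher and 15 lower in Cre/knockdown than in knockdown cells, and 5 higher and 5 lower in Cre/knockdown than in control cells. Among all genes tested, 13.5% were higher and 9.76% lower in the first comparison. The shares were 2.62% and 5.88% in the second, and 8.47% and 6.28% in the third. The smallest p-values with Rbm43 siRNA belonged to Etfdh (0.66 ± 0.049), which passes electrons from acyl-CoA dehydrogenases to ubiquinone, Dld (0.60 ± 0.045), the dihydrolipoyl dehydrogenase shared by 2-oxoacid dehydrogenase complexes, Ehhadh (0.81 ± 0.062), a peroxisomal bifunctional enzyme, and Dlst (0.58 ± 0.046), of the 2-oxoglutarate dehydrogenase complex (adjusted p = 1.19e-08, 1.38e-08, 1.82e-08 and 2.49e-08). With Cre virus they belonged to Hadhb (-0.50 ± 0.044) and Hadha (-0.43 ± 0.045), the 2 subunits of the mitochondrial trifunctional protein, Etfa (-0.49 ± 0.048), an electron carrier, and Hadh (-0.46 ± 0.045), a short-chain dehydrogenase (adjusted p = 1.90e-06, 8.27e-06, 4.74e-06 and 4.83e-06). Between Cre/knockdown and control cells, Aacs, which activates acetoacetate in the cytosol for lipid synthesis, had the smallest p of this list (-0.53 ± 0.051, adjusted p = 7.43e-07).

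Of 12 membrane transport genes, 2 were higher and 5 lower with Rbm43 siRNA, 0 higher and 0 lower with Cre virus, and 2 higher and 4 lower between Cre/knockdown and control cells. For all genes tested, the shares were 13.5% higher and 9.76% lower with Rbm43 siRNA and 2.62% and 5.88% with Cre virus. Between Cre/knockdown and control cells they were 8.47% and 6.28%. Limma at an unadjusted p under 0.05 gave 3 of the 12 with Cre virus, where edgeR called 0 and DESeq2 0 after adjustment. DESeq2 called 2 higher and 3 lower with Rbm43 siRNA, and 2 higher and 1 lower against control cells. Slc16a1, a carrier of lactate and ketone bodies, rose with Rbm43 siRNA (0.66 ± 0.051, adjusted p = 2.20e-08), as did the lysosomal cobalamin exporter gene Lmbrd1 (0.71 ± 0.066, adjusted p = 2.16e-07). The paired chains of the large neutral amino acid transporter, Slc7a5 and Slc3a2, which bring leucine into cells, fell (-0.36 ± 0.065 and -0.31 ± 0.056; adjusted p = 3.64e-04 and 4.32e-04). Slc7a5 had 1169.7 and 1143 normalized counts in Cre/knockdown cells, 956 and 1086 in knockdown cells and 1321 and 1301 in control cells, and both knockdown libraries were the lowest of the 6.

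**Figure D5:**
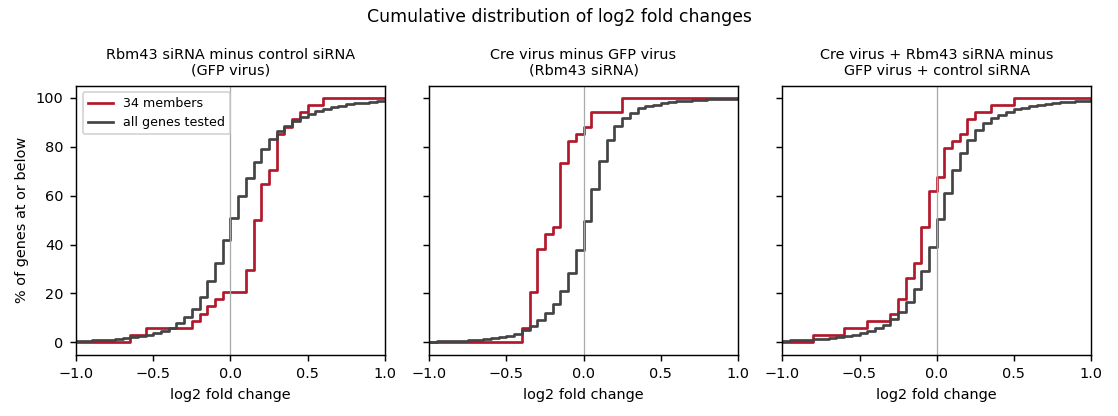
Share of genes at or below each log2 fold change (stepped lines), for the 34 members (red) and all 14211 genes tested (grey), in the 3 comparisons. The member line lies to the right of the other around 0 in the first panel and to its left in the second, with medians of 0.15 and -0.20 against -0.0056 and 0.0022.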

How the data were processed

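The values are the authors' deposited table: for each gene, a normalized signal (counts scaled by a size factor), called normalized counts here. A stranded mRNA kit and paired-end sequencing were used, per the labels' protocols. Listed without roles in the submitters' processing notes are the mm10 build, STAR 2.7.8, fastp 0.23.2 and DESeq2 2.11.40.7. What counted reads, on which annotation and strand, is not given in the sources used, so overlapping genes may share reads. Whole reads were recovered from the deposited values (100% whole within 0.01 read in each library), and on them edgeR's quasi-likelihood test called 3263, 1336 and 2111 genes in the 3 comparisons. One read was worth 0.878 to 1.22 normalized counts.

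Testing used limma 3.58.1 under R 4.3.3 with its trend option, on log2 values after adding 1, in the 14211 genes that reached 10 normalized counts in 2 or more libraries. One fit held all 6 libraries, with 3 group means and 3 residual degrees of freedom, and p-values were adjusted by Benjamini-Hochberg with a threshold of 0.05. Adding 1 understates the change of low genes. The ± beside a log2 fold change is its standard error. The code was checked on simulated data. Groups came from sample titles. Alternatives included edgeR 4.0.16 and DESeq2 1.42.0. The members and gene lists were chosen with earlier results of these data known. By rule, every member is named with its calls, values per library go to members called with a log2 fold change of at least 0.5 in size and to the ketone genes, and up to 4 related genes per comparison are named by smallest p. Other members shown per library, the ratios and the 3 promoters were chosen after their values were seen. Promoters came from RefSeq (GRCm38.p6), matched by symbol, and gene positions from GENCODE M21.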

Additional observations from a re-analysis of the deposited data

How the results depend on the processing

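The 17 alternatives changed 2 pseudocounts, the low-count filter (none, or a minimum of 50), the scaling, the samples in the fit, the trend, the tool and the replicate block, and left out each library in turn. Of the 47 calls in members, 9 held under all of them: Mccc2, Abat and Oxct1 against control cells both with Rbm43 siRNA and with Cre virus plus Rbm43 siRNA, and Acat1, Aldh4a1 and Ppm1k with Rbm43 siRNA. No called value of a member changed sign under any alternative. Values that were not called changed sign 20 times, the same value being counted again for each alternative that reversed it. The causes of the changes were not tested.

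With the replicate block, 13 members were higher and 5 lower with Rbm43 siRNA, 1 and 16 with Cre virus, and 1 and 11 against control cells. Of the 14211 genes, 1984 were then higher and 1428 lower with Rbm43 siRNA, 412 and 892 with Cre virus, and 1276 and 938 against control cells. Deviations of same-numbered libraries correlated at 0.0187, -0.042 and -0.0373. The labels do not say what a number shares, so the libraries were not paired. On recovered reads edgeR called 12, 1 and 1 members higher and 5, 18 and 10 lower. Of the 14211 genes it called 1917, 431 and 1220 higher and 1346, 905 and 891 lower.

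Without the mean-variance trend, limma called 3 members higher and 3 lower with Rbm43 siRNA, 0 and 0 with Cre virus, and 0 and 3 against control cells, and 1304, 0 and 433 genes. Beside those 0 calls with Cre virus, 1 member was higher and 21 lower at an unadjusted p under 0.05, as were 2355 genes either way, where DESeq2 called 1 and 14 members and edgeR 1 and 18; against control cells 2 were higher at that p. DESeq2 called 2035 genes with Rbm43 siRNA, and 1220 genes and 6 lower members against control cells. With no filter 11 members were lower with Cre virus and 6 against control cells, with 609 and 1251 genes called, and a fit of only the 2 groups called 2070 genes with Cre virus.

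With 1 library left out, 3 to 5 members were lower and 2101 to 3634 genes called with Rbm43 siRNA; 0 to 1 higher, 6 to 24 lower and 310 to 2067 genes with Cre virus; and 4 to 11 lower and 765 to 2647 genes against control cells. Where 1 library is left in a group, it is assumed to vary like the others. Reversed values ranged, over the left-out libraries, for Rbm43 siRNA over -0.010 to 0.21 (Bckdhb) and -0.0045 to 0.21 (Bdh1), for Cre virus over -0.052 to 0.13 (Abat), -0.56 to 0.17 (Prodh) and -0.22 to 0.26 (Aass), and against control cells over -0.0075 to 0.017 (Bcat1), -0.030 to 0.057 (Mccc1), -0.020 to 0.068 (Acat1), -0.035 to 0.021 (Mmaa), -0.020 to 0.052 (Mmab), -0.13 to 0.49 (Prodh) and -0.022 to 0.46 (Aass). Upper-quartile scaling gave -0.017 for Bcat1, -0.0087 for Mccc1 and -0.0059 for Mmab against control cells. Depth limits Bdh1, Prodh and Aass, which had under 50 normalized counts in every library.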
